A study of Mus musculus with 20 samples.

Results

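Suz12 was bound at 574 sites that lay far from the ends of protein-coding genes and carried a peak in every library of mouse embryonic stem cells, with transcription blocked or not. The sites were chosen by rule from 11943 regions, which result when the peaks of 8 deposited Suz12 lists are merged wherever they overlap by at least 1 bp. A region counted when each of the 8 lists had a peak there, its widest peak measured at least 1500 but under 5000 bp, and no annotated end of any of 21627 protein-coding genes lay within 5 kb of that peak. Of the 4281 regions with a peak in all 8 lists, 2656 of the same width had a protein-coding gene end within 5 kb, and these serve below as the near set. Peak presence and width are measured values, so neither is a result here. The requirement of a peak in all 8 lists also leaves out every site whose peak was missed in any library, which bounds the changes that can be seen.

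The cells were wild-type E14 embryonic stem cells, a mouse line, grown in serum with LIF on gelatin, and DNA bound by Suz12 was recovered by chromatin immunoprecipitation and sequenced (ChIP-seq). The 4 groups held 2 libraries each: DRB at 100 µM for 12 h, DRB at 0 h, triptolide at 10 µM for 9 h, and triptolide at 0 h. DRB inhibits CDK9, the kinase by which paused RNA polymerase II enters productive elongation, and triptolide binds the XPB subunit of TFIIH and stops initiation. The study asks where Polycomb binds once transcription is blocked. The design text calls the replicates biological, but no source says whether cultures were separate, and p-values here measure the spread between these libraries alone. The other 12 samples of the series were not analysed here.

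Suz12 holds together Polycomb repressive complex 2 (PRC2), whose enzyme Ezh2 methylates lysine 27 of histone H3. In embryonic stem cells the complex sits mainly on CpG-rich DNA at the starts of genes for development and differentiation that are silent or weakly transcribed. Not all of these starts lie at the outer end of a gene as annotated: many genes have further starts inside them, and non-coding RNA genes and microRNA genes have starts of their own.

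The sites had a median width of 2284 bp (1502 to 4851 bp) and lay a median of 20710 bp from the nearest protein-coding gene end, from 5045 bp up to 1392121 bp. At 142 of the 574 the distance was over 50 kb and at 65 it was over 100 kb. Of all sites, 356 (62.0%) lay inside a protein-coding gene and 218 outside any, while 558 of the 2656 near sites (21.0%) lay wholly inside one. RefSeq start windows, of 250 bases before to 50 after each annotated start (GRCm38.p6), were at hand for 551 of the sites. By these, 115 sites overlapped a start of a protein-coding gene, each an internal start by construction. A further 60 overlapped a start of a non-coding or pseudogene entry, 207 lay in the body of a protein-coding gene, 70 overlapped the body of a non-coding or pseudogene entry, and 99 overlapped no annotated gene.

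Of the start windows that fall wholly inside a site, 6 are printed to show the sequence under the peaks. They belong to the densest 2 sites, the 2 sites with the largest rise and the 2 with the largest fall among those that hold such a window. Each is from RefSeq, build GRCm38.p6, read 5′ to 3′ on the strand given, with CG dinucleotides in capitals. The Tnxb window is chr17:34670285-34670584 on the plus strand. The window of Gm51803, a non-coding entry inside the Cdh23 site, is chr10:60686907-60687206 on the plus strand. The Dyrk2 window is chr10:118868854-118869153 on the minus strand. The Elavl2 window is chr4:91371991-91372290 on the minus strand. The Prkg1 window is chr19:31664321-31664620 on the minus strand. The window of Gm5563, an entry inside a Tbx5 site, is chr5:119831937-119832236 on the minus strand.
Tnxb, dense site: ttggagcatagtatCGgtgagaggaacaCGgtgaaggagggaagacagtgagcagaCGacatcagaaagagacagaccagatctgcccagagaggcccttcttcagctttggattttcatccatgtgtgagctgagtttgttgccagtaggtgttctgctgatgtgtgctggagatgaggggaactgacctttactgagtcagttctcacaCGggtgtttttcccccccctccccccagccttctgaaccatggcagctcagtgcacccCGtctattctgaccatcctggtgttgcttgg
Gm51803 in Cdh23, dense site: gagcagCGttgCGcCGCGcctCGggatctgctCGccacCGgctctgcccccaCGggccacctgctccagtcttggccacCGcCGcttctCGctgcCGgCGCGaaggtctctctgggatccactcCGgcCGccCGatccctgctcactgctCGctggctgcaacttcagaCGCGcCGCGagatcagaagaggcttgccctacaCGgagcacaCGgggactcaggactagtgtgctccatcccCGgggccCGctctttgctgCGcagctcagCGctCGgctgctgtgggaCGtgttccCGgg
Dyrk2, riser: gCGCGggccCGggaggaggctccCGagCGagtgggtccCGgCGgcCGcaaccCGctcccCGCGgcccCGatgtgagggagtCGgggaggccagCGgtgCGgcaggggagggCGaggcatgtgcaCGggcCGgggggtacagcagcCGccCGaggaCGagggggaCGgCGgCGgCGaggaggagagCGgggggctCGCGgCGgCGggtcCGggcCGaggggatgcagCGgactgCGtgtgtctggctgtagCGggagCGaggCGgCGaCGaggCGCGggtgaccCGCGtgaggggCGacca
Elavl2, riser: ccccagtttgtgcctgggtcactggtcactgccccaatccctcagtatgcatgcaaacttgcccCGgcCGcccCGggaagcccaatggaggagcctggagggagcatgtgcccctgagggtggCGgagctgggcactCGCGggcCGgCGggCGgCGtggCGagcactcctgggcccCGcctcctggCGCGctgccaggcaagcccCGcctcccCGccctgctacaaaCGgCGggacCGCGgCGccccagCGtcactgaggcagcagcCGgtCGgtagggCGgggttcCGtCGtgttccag
Prkg1, faller: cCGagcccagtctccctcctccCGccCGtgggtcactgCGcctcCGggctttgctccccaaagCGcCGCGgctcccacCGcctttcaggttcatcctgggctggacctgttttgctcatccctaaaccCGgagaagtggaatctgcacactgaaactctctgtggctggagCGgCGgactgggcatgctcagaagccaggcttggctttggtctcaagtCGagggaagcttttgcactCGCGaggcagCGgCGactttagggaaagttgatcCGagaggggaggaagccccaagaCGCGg
Gm5563 in Tbx5, faller: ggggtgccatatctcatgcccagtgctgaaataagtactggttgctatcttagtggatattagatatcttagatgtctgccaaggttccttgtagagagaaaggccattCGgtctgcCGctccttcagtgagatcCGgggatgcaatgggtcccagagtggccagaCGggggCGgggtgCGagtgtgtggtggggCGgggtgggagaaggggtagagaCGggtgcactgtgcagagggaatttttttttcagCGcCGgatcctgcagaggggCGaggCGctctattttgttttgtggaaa
The Dyrk2 window holds 44 CG dinucleotides, the Gm51803 window 31, the Elavl2 window 27, the Prkg1 window 20, the Gm5563 window 12 and the Tnxb window 5. The dense Tnxb site therefore held a start window poor in CG.

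CG content was high at the starts inside these sites. Over 225 start windows that lay wholly inside 161 sites, the median was 20 CG dinucleotides in 300 bases, against 24 in 2037 windows inside near sites and 7 over all 32851 windows of the table. A window with over 50% G and C and an observed-to-expected CG ratio over 0.6 made up 64.9% of the windows inside the sites, 72.1% inside near sites and 33.3% of all. Non-coding starts inside the sites had a median of 16 CG dinucleotides, against 4 over all non-coding windows. Coding starts inside the sites had 25, against 13 over all coding windows. Windows share genes and sites, so these are descriptions with no test, and CG content in the rest of each peak was not read.

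The mature microRNAs encoded at or within 5 kb of a site are shown where the later values concern them. Capitals mark the seed, bases 2 to 8 from the 5′ end, and the sequences are those of RefSeq for GRCm38.p6. Mir9-1 (chr3:88215598-88215686, plus strand) encodes miR-9, a microRNA of neural progenitors, Mir137 (chr3:118433857-118433929, plus strand) encodes a neuronal microRNA, and Mir6402 (chr4:91373284-91373363, minus strand) lies in the site at Elavl2. Mir193a (chr11:79711969-79712034, plus strand) and Mir193b (chr16:13449523-13449601, plus strand) share the seed ACUGGCC in their 3p products. Mir365-1 (chr16:13453840-13453926, plus strand) lies beside Mir193b, and Mir322 (chrX:53054255-53054349, minus strand) beside Mir503 (chrX:53053984-53054054, minus strand).
miR-9-5p: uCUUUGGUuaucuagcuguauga
miR-137-3p: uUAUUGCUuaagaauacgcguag
miR-6402: gAGCAGUUuucccaggaacccgc
miR-193a-3p: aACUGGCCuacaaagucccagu
miR-193b-3p: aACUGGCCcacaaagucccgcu
miR-365-3p: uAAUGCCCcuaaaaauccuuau
miR-322-5p: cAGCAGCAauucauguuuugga
miR-503-5p: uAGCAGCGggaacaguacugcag
Among the 8 printed, the pair miR-193a-3p and miR-193b-3p alone had one seed.

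The sites took a smaller share of the Suz12 reads in treated libraries. They held 7.40 and 7.63% of all reads counted over the 11943 regions at DRB 12 h, against 8.53 and 8.52% at DRB 0 h. They held 7.63 and 7.57% at triptolide 9 h, against 8.59 and 8.47% at triptolide 0 h. The 4 treated libraries did not overlap the 4 untreated ones. Shares of the near set did not overlap either, and were closer together, at 44.8 and 43.2% at DRB 12 h against 46.7 and 45.8% at DRB 0 h, and at 43.4 and 44.3% at triptolide 9 h against 45.4 and 46.6% at triptolide 0 h. The ratio of reads in the sites to reads in the near set was 0.165 to 0.177 in treated and 0.182 to 0.189 in untreated libraries, again without overlap. As scores over the sites chosen, these shares carry no test. The 11943 regions were merged from lists of 7153 to 10929 peaks in treated and 5116 to 6886 in untreated libraries. How far the lower treated share follows from this choice of regions was not tested.

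**Figure D1:**
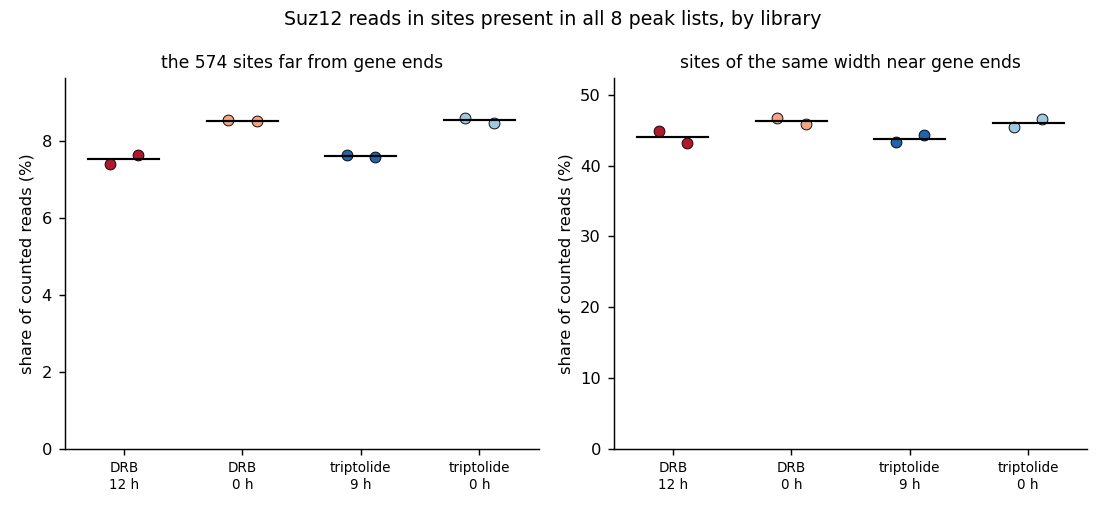
Share of the counted Suz12 reads (%, y axis from 0) in the 574 sites far from gene ends (left) and in the 2656 sites of the same width near gene ends (right), by group (x axis). Points are libraries and lines are the means of 2; in the left panel every treated library lies between 7.40 and 7.63% and every untreated one between 8.47 and 8.59%.

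The libraries held 1323926 to 7340023 reads over the regions, and a site had a median of 152.5 reads in the shallowest and 825.5 in the deepest library. The DRB count columns are named here by index (ATCACG or TGACCA), since their names give no replicate number that matches the labels. The DRB 12 h library of index ATCACG stood apart: sites inside protein-coding genes held 69.4% of its reads in the sites, against 64.9 to 66.5% in the other treated libraries and 62.7 to 64.7% in untreated ones. Its median CPM (counts per 1000000 counted reads, after TMM scaling) at sites outside genes was 81.4, against 92.8 to 98.9 in the other treated libraries and 125 to 133 in untreated ones. The column names give lanes 1 and 4 for untreated libraries and lanes 3 and 6 for treated ones, so lane and treatment cannot be told apart.

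Suz12 counts fell at most of the sites over both drugs. In edgeR's quasi-likelihood test, fitted on all 11943 regions with Benjamini-Hochberg adjustment, 363 of the 574 sites were lower and 42 higher at an adjusted p under 0.05, with a median log2 change of −0.43. Over all regions 28.9% were called lower and 28.0% higher, at a median of 0.05. Of the 4281 regions with a peak in all 8 lists, 59.1% were called lower and 10.3% higher, at −0.38. Of the near set 1457 were lower and 357 higher, at a median of −0.33. The CPM values of the 4 treated libraries were all below those of the 4 untreated libraries at 323 of the 574 sites, where 25.2% of all regions had this pattern. They were all above at 36 sites, where 24.4% of all regions were. Of regions with a peak in all 8 lists 53.0% were all below and 8.46% all above. Of the near set 49.1% and 11.0% were, against 56.3% and 6.27% of the sites. Without the DRB 12 h library of index ATCACG, 364 sites were lower and 39 higher, at a median of −0.42. Without triptolide 9 h replicate 2, the fit called 312 lower and 26 higher.

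These counts rest on the scaling, since the sources used here give no library totals. Scaled to the reads in all regions with a peak in all 8 lists (kept-region scaling), the median of all regions was 0.39 in place of 0.05, and 158 of the 574 sites were lower and 107 higher. Higher calls then made up 40.4% of the calls at the sites, against 10.4% with TMM scaling. Over all regions 11.2% were called lower and 47.4% higher with kept-region scaling. The median of the sites was −0.08 with this scaling, and that of the near set changed sign, to 0.01. With TMM scaling the median of the sites stood 0.48 below that of all regions on the log2 scale and 0.10 below that of the near set. A scaling shifts all regions by nearly the same amount, so these differences of medians, which are descriptions with no test, are no check of it. In what follows, a value in the test is with TMM scaling unless kept-region scaling is named.

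The densest sites, by mean CPM per kb of peak over the 8 libraries, were at Skor2, Tnxb, Pax5, Cracd, Cdh23, Dio3, Begain and Tlcd4, from 176 CPM per kb at Skor2 to 110 at Tlcd4, while the median site had 51.0. Skor2 (chr18:76857992-76861319) encodes a transcriptional corepressor of the developing brain. It had 556 and 413 CPM at DRB 12 h against 740 and 653 at DRB 0 h, and 418 and 469 CPM at triptolide 9 h against 642 and 788 at triptolide 0 h. The groups did not overlap, and the change was −0.61 ± 0.11 on the log2 scale (SE, edgeR adjusted p = 4.59e-04; −0.26 with kept-region scaling). Pax5 (chr4:44701212-44704923), a regulator of B cell identity and of the midbrain, had 454 and 364 CPM at DRB 12 h against 671 and 572 at DRB 0 h. At the same site it had 375 and 389 CPM at triptolide 9 h against 569 and 667 at triptolide 0 h, a change of −0.65 ± 0.10 (SE, edgeR adjusted p = 1.36e-04; −0.30 with kept-region scaling). The site inside Pax5 lies 5771 bp from a gene end and overlaps the non-coding entry 5730488B01Rik.

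Tnxb, which encodes the matrix protein tenascin-X, carried its dense site (chr17:34669622-34673695) on the internal start printed above. It had 532 and 421 CPM at DRB 12 h against 601 and 619 at DRB 0 h, and 497 and 532 CPM at triptolide 9 h against 649 and 699 at triptolide 0 h. The treated libraries were all lower (−0.38 ± 0.09, SE, edgeR adjusted p = 0.00292), but with kept-region scaling the site was no longer called (−0.03). The same held at Cdh23 (chr10:60684818-60688458), a cadherin gene of inner ear hair cells, with −0.42 and −0.08 with kept-region scaling. The Dio3 site (chr12:110186780-110189913) overlapped no annotated gene and lay 89317 bp from Dio3, which encodes a deiodinase that inactivates thyroid hormone. It had 296 and 286 CPM at DRB 12 h against 470 and 436 at DRB 0 h, and 293 and 297 CPM at triptolide 9 h against 451 and 484 at triptolide 0 h. It fell by 0.65 ± 0.08 (SE, edgeR adjusted p = 3.24e-05; −0.31 with kept-region scaling). Cracd, an actin regulator gene, fell by 0.57 and Tlcd4 by 0.59, both also lower with kept-region scaling. Begain, a gene of a synaptic protein, had 543 and 311 CPM at DRB 12 h against 544 and 416 at DRB 0 h, and 297 and 323 CPM at triptolide 9 h against 390 and 471 at triptolide 0 h. The high DRB 12 h library, of index ATCACG, overlapped the untreated ones, and the site did not pass (−0.32 ± 0.15, SE, edgeR adjusted p = 0.0879). It was called lower without that library (−0.53), and its change was −0.14 without the other DRB 12 h library. Across all 574 sites density and log2 change had a Spearman rho of 0.0043, a description over sites that share libraries.

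Among the sites whose counts fell most, the largest change was inside Lamp5 (chr2:136057761-136060161), on an internal start of this gene of a lysosome-associated membrane protein of neurons. It had 59.6 and 75.0 CPM at DRB 12 h against 113 and 157 at DRB 0 h, and 65.6 and 62.0 CPM at triptolide 9 h against 170 and 166 at triptolide 0 h. Every treated library was below every untreated one, and the change was −1.21 ± 0.12 (SE, edgeR adjusted p = 1.21e-05). Prkg1, the gene of a cGMP-dependent protein kinase, had its site on the internal start printed above (chr19:31663359-31665421), 99847 bp from a gene end. It had 68.8 and 77.8 CPM at DRB 12 h against 170 and 187 at DRB 0 h, and 90.1 and 97.0 CPM at triptolide 9 h against 181 and 189 at triptolide 0 h. The fall was tight across libraries (−1.13 ± 0.10, SE, edgeR adjusted p = 3.63e-06).

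Btrc, Gnal and Ppp2r2b were also among the largest falls. The Btrc site (chr19:45540873-45542922) lay 7530 bp from this gene of an F-box protein, in the non-coding entry Gm41856, and changed by −1.17 ± 0.14 (SE, edgeR adjusted p = 3.24e-05). Gnal (chr18:67131975-67134710), which encodes a G protein subunit of olfactory and striatal neurons, changed by −1.16 ± 0.13, and Ppp2r2b (chr18:42898027-42900079), the gene of a brain regulatory subunit of protein phosphatase 2A, by −1.12 ± 0.11 (SE). Gnal had 83.6 and 138 CPM at DRB 12 h and 167 and 169 CPM at triptolide 9 h, against 288 to 330 CPM in the 4 untreated libraries. The sites at Lamp5, Prkg1, Btrc, Gnal and Ppp2r2b were also lower with kept-region scaling, by 0.78 at Ppp2r2b to 0.86 at Lamp5.

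Dyrk2, the gene of a protein kinase, had the largest rise, on the internal start printed above (chr10:118867093-118870497). It had 277 and 203 CPM at DRB 12 h against 123 and 89.9 at DRB 0 h, and 169 and 159 CPM at triptolide 9 h against 89.5 and 83.7 at triptolide 0 h. All treated libraries were higher, and the change was 1.06 ± 0.13 (SE, edgeR adjusted p = 3.45e-05). The next rise lay outside protein-coding genes in Mir124a-1hg, a host transcript of the neuronal microRNA miR-124 (chr14:64585792-64589262), 63230 bp from Kif13b. It had 158 and 164 CPM at DRB 12 h against 82.2 and 68.7 at DRB 0 h, and 183 and 176 CPM at triptolide 9 h against 81.7 and 100 at triptolide 0 h. Its change was 1.05 ± 0.11 (SE, edgeR adjusted p = 1.14e-05). The entry is a non-coding one, and of the 42 sites called higher 7 lay outside protein-coding genes.

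Elavl2, a gene of a neuronal RNA-binding protein, rose at a site that holds both an internal start and Mir6402 (chr4:91370745-91373458). It had 157 and 149 CPM at DRB 12 h against 66.6 and 80.9 at DRB 0 h, and 143 and 132 CPM at triptolide 9 h against 72.5 and 70.7 at triptolide 0 h, a change of 0.98 ± 0.10 (SE, edgeR adjusted p = 1.48e-05). Sptbn4, a spectrin gene of the axon initial segment, rose by 1.00 ± 0.13 in its gene body (chr7:27363596-27366132), from the same test (SE, edgeR adjusted p = 6.37e-05). Rreb1 (chr13:37824688-37828565), which encodes a zinc finger transcription factor, rose by 0.95 ± 0.15 (SE). Epb41l1 (chr2:156474660-156476965), a gene of a membrane cytoskeleton protein, rose by 0.89 ± 0.15 (SE). At Rreb1 the DRB 12 h library of index ATCACG had 431 CPM against 302 to 314 in the other treated libraries. Of the 6 largest rises 4 were on internal coding starts. Of all 42 sites called higher 10 were on such starts, as were 115 of the 551 sites with start windows. With kept-region scaling the 6 largest rises were also higher, by 1.23 at Epb41l1 to 1.40 at Dyrk2.

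**Figure D2:**
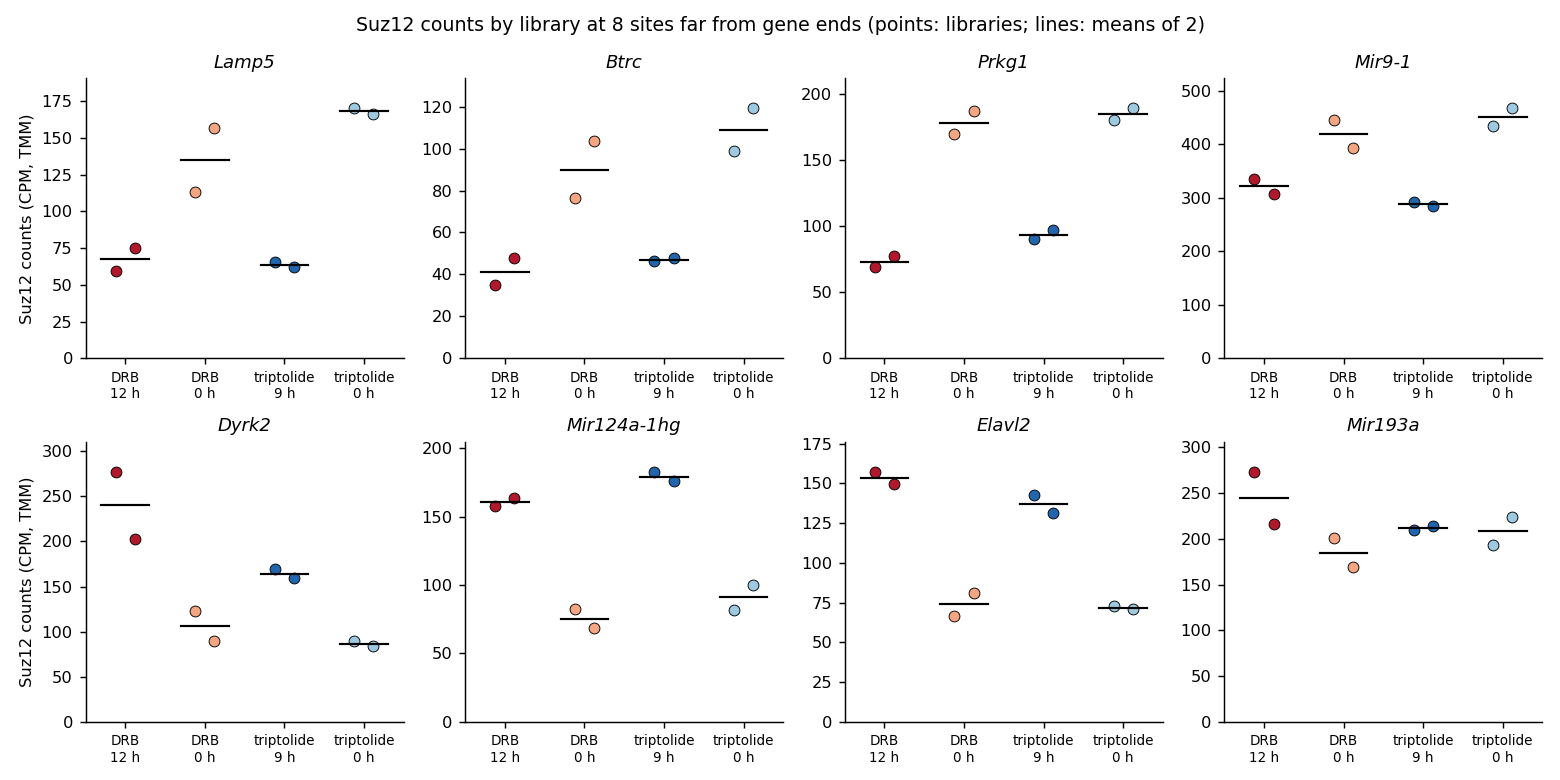
Suz12 counts (CPM after TMM scaling, y axis from 0) by group (x axis) at 8 sites, of which Lamp5, Btrc, Prkg1 and Mir9-1 were lower in treated libraries, Dyrk2, Mir124a-1hg and Elavl2 were higher, and Mir193a was not called over both drugs. Points are libraries and lines are the means of 2; at Btrc, the nearest gene, treated libraries lie between 34.8 and 47.7 and untreated ones between 76.4 and 119.

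A larger share of the sites outside protein-coding genes than of those inside was called lower. Of the 218 sites outside, 160 were lower and 7 higher, at a median of −0.53. Of the 356 sites inside, 203 were lower and 35 higher, at a median of −0.35. With kept-region scaling 81 were lower and 24 higher outside, at a median of −0.18, and 77 were lower and 83 higher inside, at −0.01. The medians stood 0.17 apart with TMM scaling; a scaling shifts all regions by nearly the same amount, so this difference does not test it. The groups did not overlap, with treated libraries lower, at 149 of the 218 sites outside and at 174 of the 356 inside. Median CPM at sites outside genes was 81.4 and 98.9 at DRB 12 h against 125 in both DRB 0 h libraries, and 97.2 and 92.8 at triptolide 9 h against 133 and 129 at triptolide 0 h. Median CPM at sites inside genes was 104 and 107 at DRB 12 h against 125 in both DRB 0 h libraries, and 102 and 106 at triptolide 9 h against 129 and 132 at triptolide 0 h. The difference between places carries no test, because a score over chosen sites is given here without one.

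**Figure D3:**
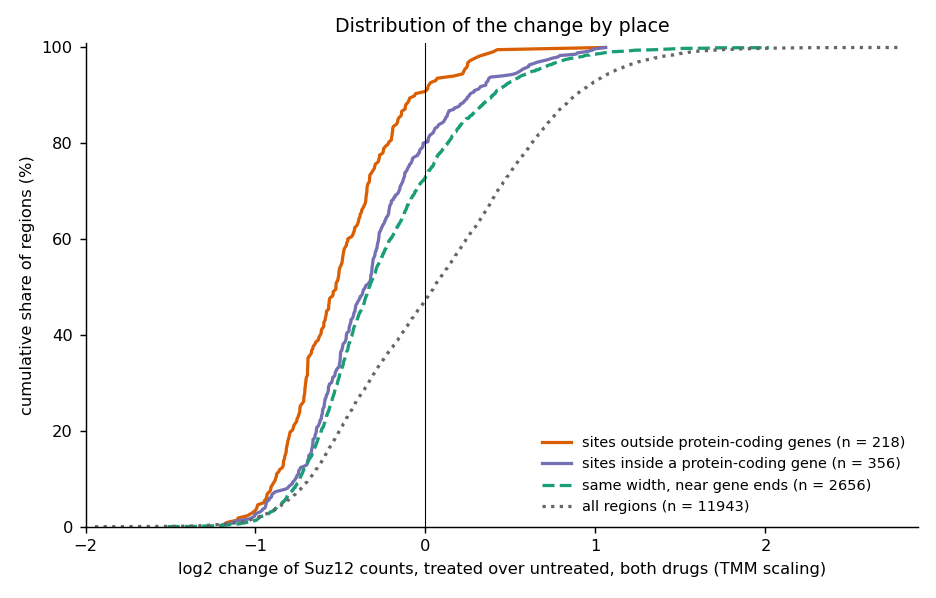
Cumulative share of regions (%, y axis) against the log2 change of Suz12 counts over both drugs, treated over untreated, with TMM scaling (x axis), for sites outside and inside protein-coding genes, for the near set and for all regions. The curve of sites outside genes lies furthest left, with its median at −0.53, against −0.35 for sites inside, −0.33 for the near set and 0.05 for all regions.

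Within these places, what a site overlapped went with different medians. Sites in the body of a non-coding or pseudogene entry had the lowest median, −0.60, with 54 of 70 lower and 3 higher. Sites in no annotated gene followed at −0.51, with 74 of 99 lower and 2 higher. Sites on a non-coding or pseudogene start had −0.44 (37 of 60 lower, 2 higher), those on an internal start of a coding gene −0.37 (65 of 115 lower, 10 higher), and those in the body of a coding gene −0.34 (122 of 207 lower, 23 higher). With kept-region scaling the medians were −0.25, −0.17, −0.09, −0.02 and 0.00 in the same order. Non-coding starts had −0.53 at the 43 sites outside protein-coding genes and −0.27 at the 17 inside them, so the place of the site and the kind of start were not separate here.

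**Figure D4:**
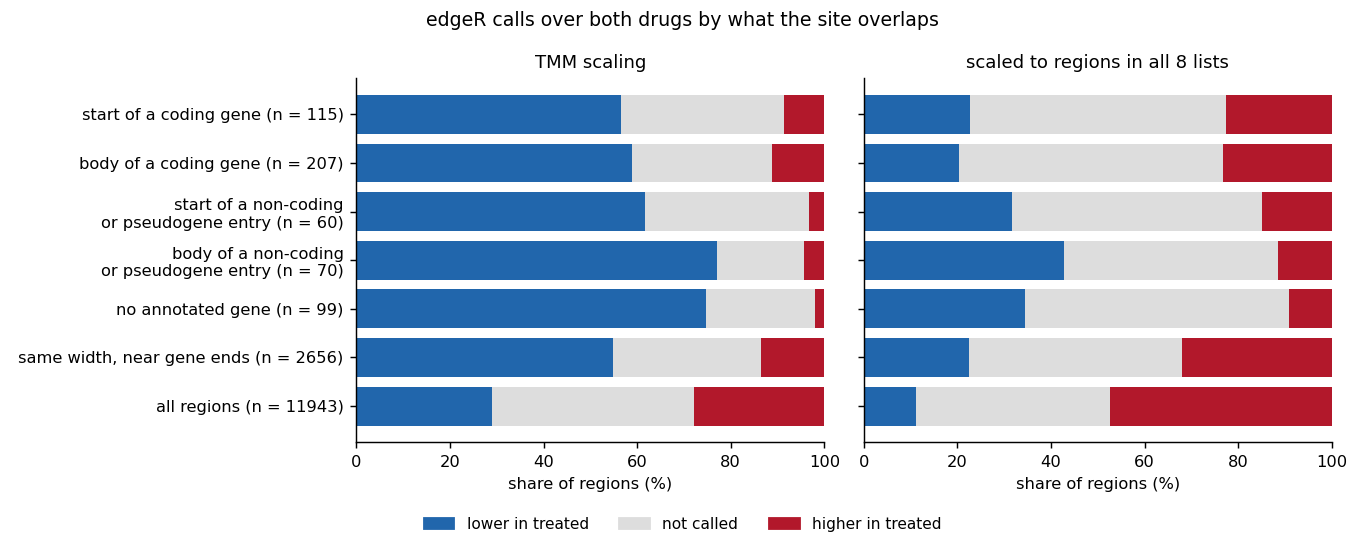
Share of regions (%, x axis) called lower, not called and called higher over both drugs by edgeR, for sites grouped by what they overlap and for 2 comparison sets (y axis), with TMM scaling (left) and with kept-region scaling (right). With TMM scaling lower calls reach 54 of 70 in the bodies of non-coding or pseudogene entries and 122 of 207 in the bodies of coding genes; with kept-region scaling higher and lower calls are closer in number at coding genes.

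Sites with a neighbour also stood lower. At 184 of the 574 sites (32.1%) another region present in all 8 lists lay within 10 kb, against 515 of the 2656 near sites (19.4%). Of these 184 sites 139 were lower and 7 higher, at a median of −0.59, and of the other 390 sites 224 were lower and 35 higher, at −0.36. With kept-region scaling the medians were −0.25 and −0.02. The order was the same in each place: −0.67 and −0.43 outside protein-coding genes and −0.49 and −0.32 inside them, for sites with and without a neighbour. By density, the 4 quartiles had medians of −0.41, −0.42, −0.45 and −0.44 from the least to the most dense. Lower calls became more frequent with density, at 75 of 144, 90 of 143, 96 of 143 and 102 of 144 sites, and 16, 15, 5 and 6 sites were higher. Counts rose as well, from a median of 67.3 CPM per site in the least dense quartile to 225 in the most dense. How often a change is called also depends on counts, so density and counts were not separate here.

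Some genes had several sites. The 574 sites were named for 489 genes, by the gene that holds a site or else by the nearest named protein-coding gene, and 421 of the genes had 1 site, 56 had 2 and 12 had 3 or more. All 4 sites inside Tbx5, a regulator of heart and forelimb development (chr5:119801865-119843299), were lower, by 0.78 to 1.02 on the log2 scale, also with kept-region scaling (−0.67 to −0.44). All 4 sites near Nr2f2, the gene of a nuclear receptor of venous and mesenchymal cells (chr7:70279682-70338766), lay in the non-coding entry Gm29683 and were lower, by 0.62 to 1.10. With kept-region scaling 3 of the 4 Nr2f2 sites were lower. The 3 sites beyond Hand2, a gene of heart and limb development (chr8:57331521-57345906), overlapped the non-coding entry Hdnr and fell by 0.78 to 0.95. The 3 sites inside Gata4, an endoderm and heart regulator (chr14:63239856-63256535), fell by 0.61 to 1.03. The 3 at Hoxc4 fell by 0.71 to 0.80 and the 3 inside Nfia, a gene of glial development, by 0.60 to 0.85.

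Not every such cluster fell. Mef2c, a regulator of muscle and neurons, had 5 sites inside or nearest to it (chr13:83523460-83731738), of which 4 were lower and 1 was not called (−0.22). The 3 sites in the body of Bsn, which encodes a scaffold of the presynaptic active zone (chr9:108104370-108116563), had changes of −0.12 to −0.02 and none was called. With kept-region scaling 2 of the 3 Bsn sites were higher. Of the 4 sites inside Zfhx3, a large homeobox and zinc finger gene (chr8:108694935-108795239), 1 was lower and 3 were not called, at −0.32 to 0.14, and with kept-region scaling 2 were higher. Sites around one gene share a locus and are not replicates of each other.

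Of 5 lists made by gene symbol, those of homeobox and other developmental transcription factors held the most sites, as they held the most of all regions. Of 60 sites at homeobox genes 48 were lower and 0 higher in edgeR's test, at a median of −0.64, while of all 467 regions at genes of that list 366 were lower and 13 higher, at −0.59. With kept-region scaling 28 of the 60 sites were lower and 3 higher, at a median of −0.29. The site nearest Emx2, a gene of cortex development, fell by 1.11, that nearest Nkx3-2, a skeletal regulator, by 1.01 and that nearest Dlx6, a gene of limb, jaw and forebrain development, by 1.00. Of the 62 sites at other developmental transcription factors 52 were lower and 2, at Sox1 and Zbtb46, higher, at a median of −0.74 (−0.39 with kept-region scaling, 37 lower and 3 higher). All 604 regions at genes of that list had 342 lower and 104 higher, at −0.45. The site at Foxb1 fell by 1.05, that at Foxf2 by 0.99 and that at Gata5 by 0.95, while the site nearest Sox1, a neural progenitor gene, rose by 0.26. The most abundant sites of these lists beside Skor2 and Pax5 were at Runx3 and Zfhx3. Neither passed (−0.23 ± 0.10 at Runx3 and 0.11 ± 0.10 at Zfhx3, SE). With kept-region scaling the Zfhx3 site was called higher (0.46), and the Runx3 site was not called (0.11). Runx3 was called lower without DRB 12 h of index ATCACG (−0.32) and without DRB 0 h of index TGACCA (−0.30), and stood at −0.14 without DRB 12 h of index TGACCA. Zfhx3 was not called without any 1 library, at 0.22 without DRB 0 h of index ATCACG and −0.0042 without DRB 0 h of index TGACCA. The sites of these lists that are named in this paragraph other than Runx3 and Zfhx3 were chosen after their values were seen.

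Genes of signalling, adhesion and excitability held fewer sites, as they also held fewer of all regions. Of 15 sites at genes of signalling ligands, receptors and antagonists 10 were lower and 1 higher, at a median of −0.39 (−0.04 with kept-region scaling, 2 lower and 3 higher), beside 142 lower and 60 higher of 274 regions in all, at −0.35. Wnt6 (chr1:74769828-74773784), which encodes a Wnt ligand, had 314 and 263 CPM at DRB 12 h against 398 and 317 at DRB 0 h, and 267 and 266 CPM at triptolide 9 h against 352 and 390 at triptolide 0 h. It changed by −0.39 ± 0.10 (SE, edgeR adjusted p = 0.00447), and by −0.04 with kept-region scaling, no longer called. The more abundant Fgf12 site, in a gene of an intracellular FGF homologue, changed by −0.55 ± 0.11 (SE; −0.21 with kept-region scaling, not called). Fgf13 and Fgf14 also encode such homologues, which the list took by symbol although they are not ligands, receptors or antagonists. Fgf12, Fgf13 and Fgf14 held 2, 2 and 1 of the sites of this list, all lower.

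Of 22 sites at genes of axon guidance and cell adhesion 15 were lower and 3 higher, at a median of −0.40 (−0.06 with kept-region scaling, 7 lower and 5 higher), beside 184 lower and 46 higher of 368 regions in all, at −0.32. The 2 sites inside Nrxn2, a presynaptic neurexin gene, went apart: the one at chr19:6495712-6500562 was lower (−0.33 ± 0.13, SE, edgeR adjusted p = 0.0397) and the other was higher (0.38, edgeR adjusted p = 0.0438). The first of these had 364 and 252 CPM at DRB 12 h against 450 and 320 at DRB 0 h, and 258 and 262 CPM at triptolide 9 h against 321 and 342 at triptolide 0 h. Its treated and untreated libraries overlapped, and the call was lost without any 1 of 6 libraries (all but DRB 12 h of index ATCACG and DRB 0 h of index TGACCA), with kept-region scaling, with sum scaling, with the filter on low counts and with the replicate block for triptolide (−0.33). Of 20 sites at ion channel and neurotransmitter receptor genes 15 were lower and 2, at Cacna1a and Ryr1, higher, at a median of −0.56 (−0.22 with kept-region scaling, 8 lower and 2 higher), beside 169 lower and 46 higher of 343 regions in all, at −0.34. Asic2, a gene of a neuronal proton-gated channel, fell by 0.63 ± 0.10 (SE; −0.28 with kept-region scaling) and Cacna1c, of a voltage-gated calcium channel, by 0.49 ± 0.10 (SE; −0.14 with kept-region scaling, not called). The 395 sites at genes of no list had 223 lower and 34 higher, at −0.35. With kept-region scaling 76 of these were lower and 91 higher, at a median of −0.0057. The medians of all 5 lists were below 0 with both scalings, while the medians over all regions of the adhesion and channel lists were above 0 with kept-region scaling, at 0.02 and 0.01.

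Among the 551 sites outside chromosome 18, whose microRNA genes were not searched, microRNA genes of the RefSeq sequence table used lay at or within 5 kb of 7. For the site in Mir124a-1hg, a miR-124 host transcript, the nearest microRNA gene tabulated was 1720141 bp away. The table may therefore lack microRNA genes, and the 7 may not be all. Mir9-1 lay inside a site 25979 bp from the nearest named protein-coding gene end (chr3:88213200-88216895), which had 335 and 308 CPM at DRB 12 h against 445 and 392 at DRB 0 h. The same site had 292 and 285 CPM at triptolide 9 h against 434 and 467 at triptolide 0 h. All treated libraries were lower, and the change was −0.51 ± 0.08 (SE, edgeR adjusted p = 2.33e-04; −0.16 with kept-region scaling, still called). Mir137 lay inside one site (chr3:118433153-118435681) and 2022 bp from another (chr3:118429813-118431835), and both were lower. The site over Mir137 had 66.8 and 87.6 CPM at DRB 12 h against 138 and 133 at DRB 0 h, and 92.0 and 83.0 CPM at triptolide 9 h against 150 and 163 at triptolide 0 h. It changed by −0.81 ± 0.11 (SE, edgeR adjusted p = 7.17e-05; −0.46 with kept-region scaling, still called) and its neighbour by −0.69 ± 0.16 (SE, edgeR adjusted p = 0.00282; −0.35 with kept-region scaling, not called).

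The sites of the 2 microRNAs with one seed gave no call over both drugs. The site over Mir193a (chr11:79710241-79713127) had 273 and 216 CPM at DRB 12 h against 201 and 169 at DRB 0 h, and 210 and 214 CPM at triptolide 9 h against 193 and 223 at triptolide 0 h. Its groups overlapped, and the change was 0.22 ± 0.10 (SE, edgeR adjusted p = 0.0910). Under DRB alone the site was called higher (0.41 ± 0.15, SE, edgeR adjusted p = 0.0473), and under triptolide its change was 0.03. Over both drugs it was called higher with kept-region scaling (0.56), with sum scaling (0.42), with the filter on low counts (0.26) and without DRB 12 h of index TGACCA (0.31). The site 460 bp from Mir193b (chr16:13446090-13449063), which is also near Mir365-1, had 140 to 147 CPM in the 4 treated and 152 to 179 CPM in the 4 untreated libraries, which did not overlap. Its change was −0.20 ± 0.09 (SE, edgeR adjusted p = 0.0648), with the opposite sign under kept-region scaling (0.14, not called). The X chromosome site 2258 bp from Mir322, with Mir503 just beyond (chrX:53056607-53058300) had 45.5 to 50.4 CPM in treated and 48.7 to 57.4 CPM in untreated libraries and did not pass (−0.14 ± 0.12, SE; 0.20 with kept-region scaling). The seventh site, that of Mir6402 at Elavl2, rose as given above.

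With TMM scaling more sites were lower than higher under each drug alone. Kept-region scaling gave 80 lower and 69 higher under DRB, and 75 lower and 77 higher under triptolide. At DRB 12 h against 0 h, 264 of the 574 sites were lower and 27 higher in edgeR's test, at a median of −0.41, where 19.2% of all regions were lower and 18.1% higher. At triptolide 9 h against 0 h, 297 were lower and 25 higher, at −0.45, where 21.9% of all regions were lower and 19.3% higher. Under DRB 42.4% of regions with a peak in all 8 lists were lower and 6.82% higher, and 39.9% and 9.11% of the near set. Under triptolide the shares were 48.7% and 6.77%, and 45.8% and 9.00% of the near set. Beside these, 46.0% of the sites were lower under DRB and 51.7% under triptolide. The counts at the sites moved with single libraries. A group left with 1 library is assumed to vary like the others. Without DRB 12 h of index ATCACG or TGACCA, 262 or 292 sites were lower under DRB, and without DRB 0 h of index TGACCA 164 were lower and 13 higher. Without triptolide 9 h replicate 1 or 2, 152 or 129 were lower and 13 higher under triptolide. Without triptolide 0 h replicate 1 or 2, 195 or 211 were lower and 13 or 16 higher. The drugs differ in dose and time, so their values stand side by side. The 2 changes had the same sign at 533 of the 574 sites and a Spearman rho of 0.86 across sites, from libraries that the drugs do not share, a description of sites that share libraries within each drug. Over all 11943 regions rho was 0.89.

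No site passed the test of the difference between the drugs in the fit without a block. In edgeR 0 of the 574 passed, with 9 at an unadjusted p under 0.05, and in DESeq2 0 passed, with 6 unadjusted, while 0.0167% of all regions passed in edgeR. Without DRB 12 h of index TGACCA 1 site passed, and with the DRB index block, added after seeing the data, 5 passed. The difference, DRB change minus triptolide change, ran from −1.02 to 0.76 with a median of 0.03, and its median SE was 0.22. The sites with the 2 lowest unadjusted p are named after their values were seen. A site inside Pfkfb3, a glycolysis regulator gene (chr2:11501205-11504694), had 65.2 and 87.1 CPM at DRB 12 h against 136 and 153 at DRB 0 h, and 165 and 169 CPM at triptolide 9 h against 170 and 161 at triptolide 0 h (difference −0.93 ± 0.21, SE, edgeR adjusted p = 0.959). A site inside Tspan4, a tetraspanin gene (chr7:141481424-141483194), had 70.4 and 65.4 CPM at DRB 12 h against 72.3 and 51.8 at DRB 0 h, and 113 in both triptolide 9 h libraries against 49.9 and 48.4 at triptolide 0 h (difference −1.02 ± 0.24, SE, edgeR adjusted p = 0.999).

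**Figure D5:**
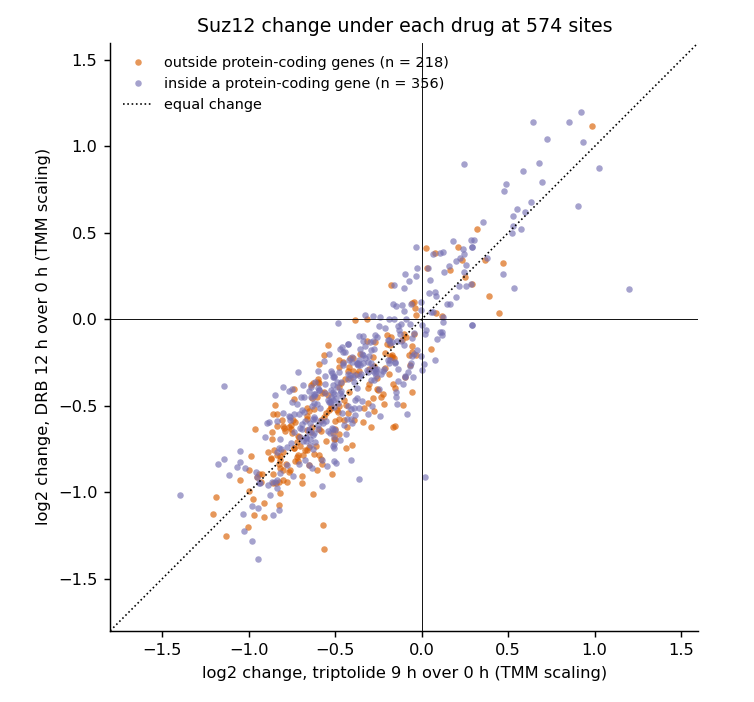
Log2 change of Suz12 counts at DRB 12 h over 0 h (y axis) against that at triptolide 9 h over 0 h (x axis), with TMM scaling, for the 574 sites; each point is a site, coloured by place, and the dotted line marks equal change. Most points lie in the lower left near the line, and 533 of 574 have the same sign under both drugs.

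Median peak width at the sites went in different directions under DRB, where treated and untreated lists overlapped, and under triptolide, where they did not. The median summed peak width per site was 1655.5 and 2098.5 bp in the DRB 12 h lists against 1430 and 1826.5 bp in the DRB 0 h lists. It was 1945.5 and 1873.5 bp in the triptolide 9 h lists against 2020 and 1983 bp in the triptolide 0 h lists. Over the lists the treated to untreated ratio was 1.05. In the near set the median was 1875.5 and 2276.5 bp at DRB 12 h against 1588 and 1898 bp at DRB 0 h. It was 2192 and 2108.5 bp at triptolide 9 h against 2082.5 and 2069 bp at triptolide 0 h, wider under this drug too. The libraries held 2416530 and 7340023 counted reads at DRB 12 h against 1323926 and 4396744 at DRB 0 h. They held 4334366 and 4441617 at triptolide 9 h against 3699979 and 3070233 at triptolide 0 h. Whether depth bears on these widths was not tested. Width entered the choice of the sites, so these values are descriptions. Treated lists held more peaks, and the sites made up 6.78 to 8.52% of the covered length in treated and 9.77 to 11.0% in untreated lists.

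The sites just inside and just outside the limits of the rule are given as a description. The narrowest sites that counted, at 1502 bp in Gabrb1 and 1503 bp nearest Eef2kmt, had log2 changes of −0.65 and −0.53, and those just too narrow, both 1499 bp, had −0.01 at Casz1 and −0.88 near Arhgap36. The widest that counted, at 4851 bp in Nrxn2 and 4821 bp in Gnas, had −0.33 and 0.17, and those just too wide, at 5023 bp in Slc30a3 and 5050 bp near Polg, had −0.41 and −0.67. Among the nearest that counted, a site 5088 bp from Smug1 had −0.30, and those just too near, 4989 bp from Dbndd2 and 4972 bp from En1, had 0.02 and −0.88.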

How the data were processed

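Suz12 ChIP-seq was read from 8 deposited peak lists, 1 per library. Per the submitters' processing notes the authors used Bowtie and MACS on mm10 (GRCm38), without versions. The deposited counts are raw whole numbers of reads per peak in 13 columns, per the file headers. The column names placed 8 columns in the 4 groups, and the other 5 columns were not used. Peak starts were read as counting from 0.

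Peaks that overlapped by 1 bp were merged, and the counts over the widest peak of each of 11943 regions were tested in edgeR 4.0.16 (R 4.3.3) by quasi-likelihood, with TMM scaling, 4 group means, no filter and Benjamini-Hochberg adjustment over all regions, at an adjusted p under 0.05. The change over both drugs is the mean of the DRB and triptolide contrasts. CPM are per 1000000 reads counted over the regions, since no library totals are given, so changes are relative. Genes and start windows are from RefSeq for GRCm38.p6. The start windows cover no gene on chromosome 18, where 23 sites lie. No genome sequence was used, so the start windows stand in for the CpG-richest stretch of each peak that had been planned.

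Members, gene lists and comparisons were chosen with earlier results of these data known. Named sites are the 8 densest, the 6 largest called rises and falls, all within 5 kb of a microRNA gene, 2 on each side of each limit, and the 2 of highest mean CPM in each of 5 gene lists. A site is named for the gene that holds it, or else for the nearest protein-coding gene end, skipping Gm and Rik symbols unless no other lies within 100 kb. Sites named outside this rule, at loci with 3 or more sites and among examples of the lists, were chosen after their values were seen. Some sites that the rule takes are not reported here. On simulated data with 200 of 11943 regions changed, the test over both drugs found 56.7% of changes of 1.5-fold, 89.6% at 2-fold and 100% at 3-fold. It called 7 of 11743 unchanged regions. Directions were drawn at random there, and in the data 28.0% of all regions were called higher and 28.9% lower. With so many more changes in the data, these rates need not hold for them. Alternatives were kept-region and sum scaling, DESeq2 1.42.0, a mean count of at least 50, a replicate block, leaving out each library or list, distances of 2.5 and 10 kb, no width limit, an overlap of 0.5 to merge and the widest peak per list.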

Additional observations from a re-analysis of the deposited data

How the results depend on the processing

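Counts with TMM scaling were 42 higher and 363 lower of the 574 sites over both drugs, 27 and 264 under DRB, and 25 and 297 under triptolide. With kept-region scaling they were 107 and 158, 69 and 80, and 77 and 75, and the median change was −0.085. With sum scaling 71 sites were higher over both drugs, 47 under DRB and 47 under triptolide, 152 were lower under triptolide, and the median was −0.23. DESeq2 called 27 higher over both drugs. Only triptolide columns carry replicate numbers that match the labels. The paired deviations of the triptolide columns had r = 0.391, and those of the DRB index 0.375. With the replicate block for triptolide 39 sites were higher and 358 lower over both drugs. With a DRB index block added, chosen after seeing the data, 54 were higher under DRB, 43 under triptolide, and 5 differed between the drugs.

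Without 1 library in turn, 26 to 50 sites were higher and 312 to 381 lower over both drugs, 13 to 38 and 164 to 292 under DRB, and 13 to 29 and 129 to 322 under triptolide. The median ran from −0.48 (without DRB 12 h of index TGACCA) to −0.42, and 0 to 1 sites differed between the drugs. The fewest falls under triptolide came without triptolide 9 h replicate 2 and the fewest under DRB without DRB 0 h of index TGACCA. Without 1 list in turn, chosen after seeing the data, 567 to 602 sites met the rule. A distance over 10 kb left 413 sites, and the treated to untreated ratio of their share of reads was 0.900, against 0.886 for all 574. A distance over 2.5 kb gave 732 sites, no width limit 802, and the 0.5 overlap 579.

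Of 33 named sites, those that changed sign with kept-region scaling were Begain (0.021), Mir193b (0.14), Nrxn2 (0.011), Runx3 (0.11) and Mir322 (0.20), and with sum scaling Mir193b (0.0021) and Mir322 (0.060). Zfhx3 was called higher with kept-region scaling (0.46). With TMM scaling it ran from −0.0042 to 0.22 without 1 library in turn, and changed sign without DRB 0 h of index TGACCA. The cause of these changes was not tested. DRB 0 h of index ATCACG was the shallowest library.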
